A study of Mus musculus with 18 samples.

Results

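A set of 8 genes of cholesterol synthesis and its control were followed in epididymal white adipose tissue of male mice: Hmgcs1, Idi1, Fdps, Sqle, Lss and Cyp51, which encode enzymes of the pathway, Insig1, which encodes a sterol-regulated retention protein, and Srebf2, which encodes the transcription factor SREBP2. They are 8 of the 16452 genes in the deposited count table, found by matching Ensembl identifiers to GENCODE M21, and all 8 were present. The genes were selected on their measured values in these same libraries, namely their library-scaled read counts (CPM) across the groups and the correlation between them, so those values are given as a description and carry no test. The data are RNA sequencing of whole fat pads, with 6 libraries of let-7e, 6 of let-7d and 5 of control; the labels also describe control replicate 5, which is not analysed here. All mice were wild-type C57BL/6 males of the generation labelled Fm, derived from zygotes microinjected with the microRNA let-7e, the microRNA let-7d or a negative control. All groups shared chow until week 6 and then a diet labelled LFD until week 15, while the age label reads 24 weeks for every sample. The labels give no injected dose or sequence, do not tie animals to litters, and do not say whether a library is 1 animal or a pool, so the spread between libraries may hold shared or technical sources.

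Cholesterol is built from acetyl-CoA through mevalonate, isoprenoid diphosphates, squalene and lanosterol. When sterols in the endoplasmic reticulum run low, the escort protein SCAP carries SREBP2 to the Golgi, where proteases release the part that enters the nucleus and raises transcription of the enzyme genes. When sterols are plentiful, INSIG proteins hold SCAP back, and Insig1 is itself an SREBP target. Fat cells store a large pool of unesterified cholesterol in the lipid droplet surface and make fatty acids under the related factor SREBP1, encoded by Srebf1.

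The 2 injected microRNAs belong to 1 family, and their mature 5p strands, as listed by RefSeq on GRCm38.p6, are shown because they define the groups; the labels name no arm. Capitals mark the seed, bases 2 to 8 from the 5′ end, which is the same in both; over the 22 bases the strands are the same at 19 positions.
mmu-let-7e-5p: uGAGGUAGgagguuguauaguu
mmu-let-7d-5p: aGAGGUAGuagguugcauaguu
The let-7e strand lies on the plus strand at chr17:17830366-17830387 and the let-7d strand on the minus strand at chr13:48536078-48536099.

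The RefSeq promoter windows, which run from 250 bases before to 50 bases after the annotated start on GRCm38.p6, were available for 6 of the 8 genes (all but Sqle and Fdps). Of these 6 windows, 4 are printed because their genes had the highest mean correlation with the other members. Fdps, which has no window, had a mean r of 0.617, above Insig1 (0.615) and Idi1 (0.572). Hmgcs1 is added, after its match was seen, because its window alone held the full string searched for as the sterol element, TCACNCCAC. Capitals mark, on either strand, the CCAAT box (CCAAT), the GC box (GGGCGG) and the sterol element shortened to TCACNCCA.
Cyp51: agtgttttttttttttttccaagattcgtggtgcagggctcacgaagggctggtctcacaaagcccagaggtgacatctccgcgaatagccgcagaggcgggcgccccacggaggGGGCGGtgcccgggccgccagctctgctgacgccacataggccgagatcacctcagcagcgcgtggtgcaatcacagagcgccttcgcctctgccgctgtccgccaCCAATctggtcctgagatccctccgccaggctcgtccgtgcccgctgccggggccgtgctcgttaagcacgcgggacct
Lss: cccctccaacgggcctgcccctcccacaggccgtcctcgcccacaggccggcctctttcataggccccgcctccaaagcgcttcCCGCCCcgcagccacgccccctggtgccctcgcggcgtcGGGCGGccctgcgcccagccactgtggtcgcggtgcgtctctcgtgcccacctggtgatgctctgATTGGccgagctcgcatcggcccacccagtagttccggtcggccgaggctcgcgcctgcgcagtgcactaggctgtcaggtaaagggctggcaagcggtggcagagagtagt
Insig1: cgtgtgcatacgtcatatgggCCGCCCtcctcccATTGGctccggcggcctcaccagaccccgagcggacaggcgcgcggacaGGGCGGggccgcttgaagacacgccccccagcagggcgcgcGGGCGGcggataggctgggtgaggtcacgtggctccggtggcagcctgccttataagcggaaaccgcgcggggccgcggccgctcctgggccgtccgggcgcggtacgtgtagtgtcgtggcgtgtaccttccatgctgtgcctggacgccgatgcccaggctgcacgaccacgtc
Idi1: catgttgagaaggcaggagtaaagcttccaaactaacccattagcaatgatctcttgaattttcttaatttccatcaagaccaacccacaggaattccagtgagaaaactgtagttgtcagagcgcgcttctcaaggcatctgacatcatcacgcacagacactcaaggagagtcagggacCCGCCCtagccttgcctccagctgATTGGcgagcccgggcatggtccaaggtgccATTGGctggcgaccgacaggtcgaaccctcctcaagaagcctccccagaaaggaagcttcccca
Hmgcs1: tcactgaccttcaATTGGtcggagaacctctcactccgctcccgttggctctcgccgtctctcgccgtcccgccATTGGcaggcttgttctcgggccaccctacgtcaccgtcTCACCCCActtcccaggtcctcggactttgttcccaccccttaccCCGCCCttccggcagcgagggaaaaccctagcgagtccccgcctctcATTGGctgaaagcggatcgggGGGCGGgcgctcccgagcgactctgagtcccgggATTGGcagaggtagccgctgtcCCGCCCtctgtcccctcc
These windows are chr5:4104648-4104947 on the minus strand for Cyp51, and on the plus strand chr10:76531355-76531654 for Lss, chr5:28071162-28071461 for Insig1, chr13:8885356-8885655 for Idi1 and chr13:119690101-119690400 for Hmgcs1.

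The sterol element TCACNCCAC was found in 1 of the 6 windows, that of Hmgcs1, as TCACCCCAC starting 137 bases before the annotated start. Of all 32851 RefSeq windows of this length, 1.24% held it. The shortened form TCACNCCA, which any full element also contains and which was added after the windows were seen, was in 2 of the 6 windows, Hmgcs1 and Srebf2, against 4.36% of all windows. The CCAAT box was in 6 of 6 windows, against 37.4% of all windows, with 4 matches in Hmgcs1 and 2 in Idi1. The GC box was also in 6 of 6, against 35.7% of all windows, with 5 matches in Srebf2. A match here describes letters in a window and not a bound site. Only these fixed strings were searched, so a window without a match is not shown to lack a sterol element.

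Per kilobase of the longest coding transcript, Insig1 had the highest level of the 8 genes and Idi1 the lowest. The mean over the 17 libraries was 89.4 CPM per kb for Insig1 and 69.0 for Hmgcs1, the enzyme that makes HMG-CoA, followed at some distance by 15.9 for Cyp51, 11.9 for Srebf2, 11.1 for Lss, 10.3 for Sqle and 8.65 for Fdps. Idi1, the isopentenyl diphosphate isomerase, averaged 1.62 CPM per kb, with raw counts from 47 to 183 per library. The lowest and highest libraries spanned 21.7 to 272 CPM per kb for Insig1 and 20.7 to 131 for Hmgcs1, so those neighbours in the order overlapped widely. The ranges of Cyp51 (8.23 to 62.8), Srebf2 (7.55 to 21.7), Lss (3.78 to 33.8), Sqle (5.49 to 22.6) and Fdps (4.0 to 20.8) overlapped as well, whereas the highest Idi1 value, 3.08, lay under the lowest of every other member.

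**Figure D1:**
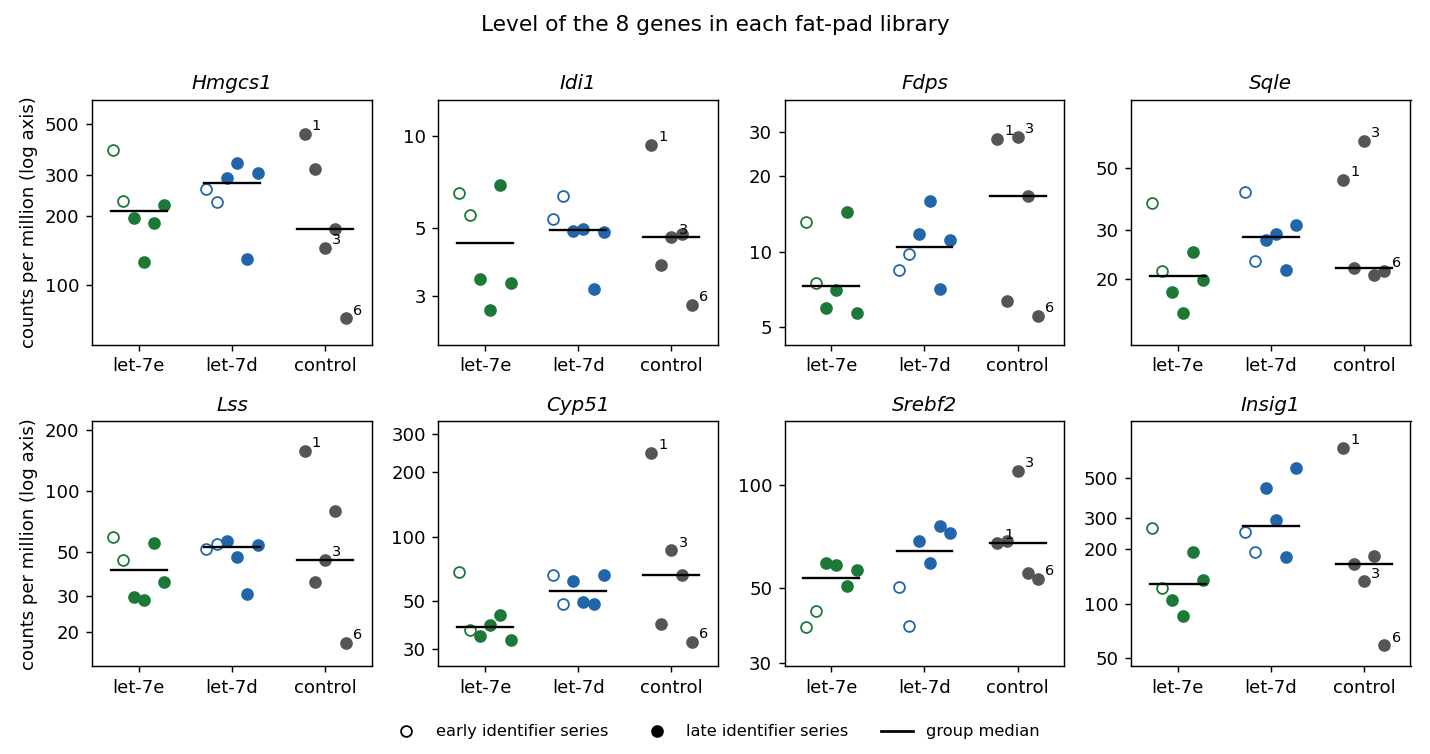
CPM of each of the 8 genes (log axis) in every library, with let-7e, let-7d and control from left to right; each point is 1 library, open points are the early identifier series, the black line is the group median, and control libraries 1, 3 and 6 are numbered. Control 1 is the highest point for Hmgcs1, Idi1, Lss, Cyp51 and Insig1, and control 3 for Sqle, Fdps and Srebf2.

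The SD of CPM was larger in the controls than in let-7e or let-7d for each of the 8 genes, and 3 control libraries held most of the extremes. Control 1 was the highest of the 17 libraries for 5 genes and control 3 for the other 3. Control 6 was the lowest library for 5 genes, Hmgcs1, Fdps, Lss, Cyp51 and Insig1. The ratio of the highest to the lowest library ran from 2.88 for Srebf2 to 12.5 for Insig1. The groups overlapped for each of the 8 genes in each of the 3 comparisons over all libraries.

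The enzymes are given in the order of the pathway. Hmgcs1 had 126 (lowest), 209 (median) and 385 CPM (highest) in let-7e, and 130, 276.5 and 338 CPM in let-7d, against 454, 319, 145, 174 and 71.5 CPM in controls 1, 2, 3, 4 and 6. The control range contained both injected groups entirely. Idi1 had 2.72, 4.49 and 6.90 CPM in let-7e and 3.18, 4.94 and 6.36 CPM in let-7d, against 9.34, 3.80, 4.67, 4.79 and 2.82 CPM in controls 1, 2, 3, 4 and 6. Apart from control 1, the Idi1 values of the groups lay over one another.

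Fdps encodes farnesyl diphosphate synthase, at the branch between sterols and other isoprenoids. It had 5.67, 7.25 and 14.3 CPM in let-7e and 7.11, 10.4 and 15.9 CPM in let-7d, against 28.2, 6.35, 28.8, 16.6 and 5.52 CPM in controls 1, 2, 3, 4 and 6. Controls 1, 3 and 4 were above every injected library, and the other 2 were low. Sqle, the squalene monooxygenase and a rate-limiting step of the later pathway, had 15.2, 20.6 and 37.5 CPM in let-7e and 21.5, 28.3 and 41.1 CPM in let-7d. In controls 1, 2, 3, 4 and 6 Sqle had 45.4, 21.9, 62.4, 20.6 and 21.4 CPM. Controls 1 and 3 were above all injected libraries, and controls 2, 4 and 6 sat near the let-7e median.

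Lss encodes lanosterol synthase, which closes the sterol rings. Its levels were 28.9, 40.3 and 59.2 CPM in let-7e and 30.9, 52.7 and 56.5 CPM in let-7d, against 158, 35.5, 45.6, 79.3 and 17.6 CPM in controls 1, 2, 3, 4 and 6. Controls 1 and 4 were above the injected libraries and control 6 below them. Cyp51, the lanosterol demethylase, had 33.0, 37.8 and 68.7 CPM in let-7e and 48.3, 55.9 and 66.1 CPM in let-7d. In controls 1, 2, 3, 4 and 6 Cyp51 had 246.7, 39.1, 86.2, 65.9 and 32.4 CPM. Control 1 was 2.86 times the next library. Up to 166 bases of a Cyp51 exon overlap an exon of Akap9 on the other strand. Exons of Hmgcs1 (458 bases), Idi1 (323) and Lss (150) also overlap other genes on the other strand. An Fdps exon shares 197 bases with Gm43738 on the same strand. Of these overlapping genes only Akap9 is in the count table. Whether reads were counted by strand is not given in the sources used here.

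Insig1 had 85.4, 129 and 263 CPM in let-7e and 182, 269.8 and 564 CPM in let-7d, against 733, 166, 133, 185 and 58.6 CPM in controls 1, 2, 3, 4 and 6. Let-7d libraries lay mostly above let-7e libraries, and 4 of the 5 controls lay within or below the let-7e range. Srebf2 had 38.3, 53.5 and 59.1 CPM in let-7e and 38.7, 64.1 and 75.8 CPM in let-7d, against 67.9, 68.7, 110, 55.3 and 53.1 CPM in controls 1, 2, 3, 4 and 6. Control 3 stood apart at the high end for Srebf2, while control 1, extreme for the enzymes, was in the middle.

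Fold changes came from edgeR's quasi-likelihood test on all 17 libraries, with the identifier series as a term, since 2 let-7e and 2 let-7d libraries carry early sample identifiers and the other 13 libraries, among them every control, carry late ones. No gene of the 16452 reached an adjusted p under 0.05 in let-7e against control (0.0%), in let-7d against control (0.0%) or in let-7e against let-7d (0.0%), and so none of the 8 did. At an unadjusted p under 0.05 there were 1729 genes in let-7e against control, 1676 in let-7d against control and 1097 in let-7e against let-7d. DESeq2 called 15, 10 and 14 genes in these comparisons, none of them among the 8.

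In let-7e against control the log2 fold change was negative for 8 of 8 genes, with a median of -0.75, beside -0.04 over all genes, of which 58.1% were negative. The largest was that of Cyp51, -1.25 ± 0.44 (SE), followed by Fdps at -0.94 ± 0.45, Lss at -0.79 ± 0.43, Sqle at -0.76 ± 0.31 and Insig1 at -0.74 ± 0.58. Srebf2 was at -0.31 ± 0.16, Idi1 at -0.28 ± 0.31 and Hmgcs1 at -0.20 ± 0.41. Control 1 decided much of this: without it 5 of 8 were negative and the median was -0.26, with Hmgcs1 at 0.20, Insig1 at 0.17, Idi1 at 0.06 and Cyp51 at -0.50. Without control 3 the median was -0.53, and without control 6 it was -0.93.

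In let-7d against control 6 of 8 were negative, with a median of -0.30 beside -0.04 over all genes, of which 57.5% were negative. Cyp51 was at -0.81 ± 0.42, Fdps at -0.68 ± 0.44, Lss at -0.56 ± 0.42 and Sqle at -0.39 ± 0.30, while Insig1 was at 0.33 ± 0.54 and Hmgcs1 at 0.06 ± 0.40. Idi1 was at -0.21 ± 0.31 and Srebf2 at -0.07 ± 0.16. Without control 1 the median was -0.01 with 4 of 8 negative, Cyp51 was at -0.06, Lss at 0.04 and Insig1 at 1.25. Without control 3 the median was -0.14, and without control 6 it was -0.43. Both comparisons with control use the same 5 control libraries.

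**Figure D2:**
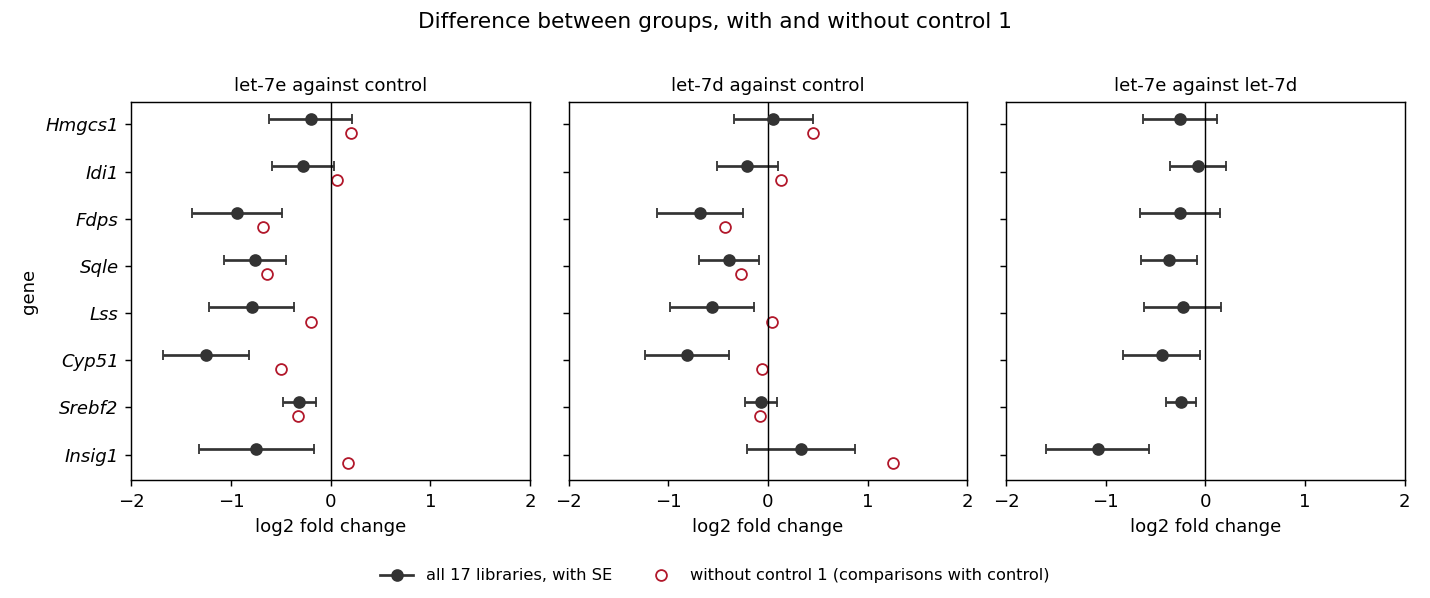
Log2 fold change (x axis) of each gene in the 3 comparisons. Filled points with bars are the fit on all 17 libraries with its SE. Open points, drawn only in the comparisons with control, are the fit without control 1. Leaving out control 1 moved Cyp51 in let-7e against control to -0.50, and Insig1 in let-7d against control to 1.25.

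The comparison of let-7e with let-7d does not use the controls for its means. All 8 log2 fold changes were negative, with a median of -0.25 beside -0.01 over all genes, of which 53.1% were negative. Insig1 stood farthest, at -1.08 ± 0.52, and its group means were 151 ± 66.4 CPM in let-7e and 320 ± 151 CPM in let-7d (SD, n = 6 each). Cyp51 was at -0.44 ± 0.39, Sqle at -0.37 ± 0.28, Hmgcs1 at -0.25 ± 0.37, Fdps at -0.25 ± 0.40, Srebf2 at -0.25 ± 0.15, Lss at -0.23 ± 0.38 and Idi1 at -0.07 ± 0.28. In the late libraries alone, 4 against 4, the median was -0.48, and in the early ones, 2 against 2, it was -0.10. Among late libraries Cyp51 was between 33.0 and 43.1 CPM in let-7e and between 48.3 and 66.1 CPM in let-7d, with no overlap, and Srebf2 likewise had no overlap, at 50.8 to 59.1 CPM in let-7e and 59.3 to 75.8 CPM in let-7d. Of all genes 1.94% were wholly lower in let-7e in this way, and the closest Srebf2 values of the groups were almost equal.

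The 7 genes other than Srebf2 varied together from library to library. Their 21 pairs had a mean Pearson r of 0.67 between log2 CPM values over the 17 libraries, from 0.37 for Hmgcs1 with Fdps to 0.88 for Idi1 with Lss, and all 21 were positive. Cyp51 with Lss had r = 0.84, Cyp51 with Fdps 0.82, Lss with Insig1 0.81 and Hmgcs1 with Insig1 0.80. The mean Spearman rho of the same pairs was 0.67. These libraries share the scaling to library size, and the genes were chosen for this correlation, so no p is given.

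**Figure D3:**
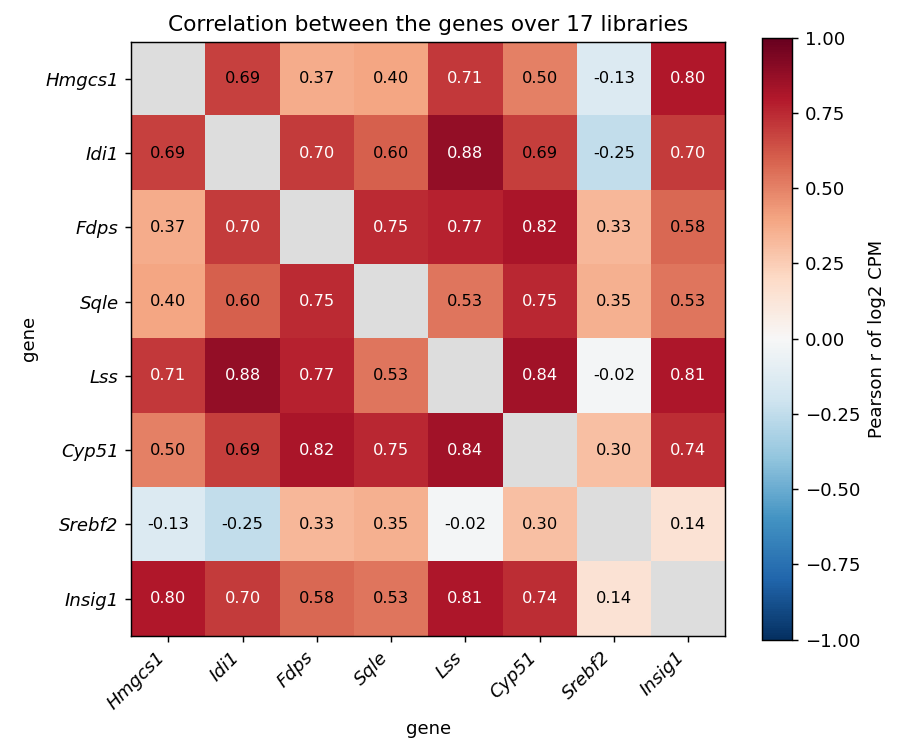
Pearson r between log2 CPM values of each pair of the 8 genes over the 17 libraries, printed in each cell and coloured from -1 (blue) to 1 (red); the grey diagonal is empty. The Srebf2 row and column run from -0.25 to 0.35, while the other genes run from 0.37 to 0.88.

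The genes also varied together within groups. After group and series means were taken out, the mean r of the 21 pairs was 0.71, and within the 6 let-7e libraries it was 0.79. Within the 6 let-7d libraries it was 0.52, with pairs from 0.01 to 0.88. Leaving out controls 1 and 6, the libraries farthest from the median score, gave 0.51, with all 21 pairs positive and the weakest at 0.01. Without the 4 libraries that hold transcripts of neighbouring organs or epithelium it was 0.76.

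Within this set there were 2 finer patterns, both read from the levels after they were seen. Sqle and Fdps (r = 0.75) were high in controls 1 and 3 alike, while Hmgcs1 and Insig1 were high in control 1 and not in control 3, where they had 145 and 133 CPM. Hmgcs1 had the lowest mean r with the other members after Srebf2, 0.48, and Cyp51 the highest, 0.66.

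Over all 17 libraries Srebf2 did not follow the other 7 genes closely. Its r with the other 7 genes ran from -0.25 (Idi1) to 0.35 (Sqle), with a mean of 0.10, and within the let-7e libraries all 7 were negative, from -0.85 to -0.62. In the late libraries alone all 7 were positive, from 0.11 to 0.72, with a mean of 0.31. After group and series means were taken out, 6 of 7 were positive, from -0.03 to 0.61, with a mean of 0.18. By Spearman rho 2 of 7 were then positive, with a mean of -0.004. The 4 early libraries were the 4 lowest for Srebf2, at 38.3 and 42.8 CPM in let-7e and 50.2 and 38.7 CPM in let-7d, whereas the late libraries ran from 50.8 to 75.8 CPM in the injected groups and from 53.1 to 110 CPM in the controls. SREBP2 is controlled by cleavage and transport of the protein, which RNA counts do not measure. The part of this control, or of the identifier series, in these correlations was not tested.

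**Figure D4:**
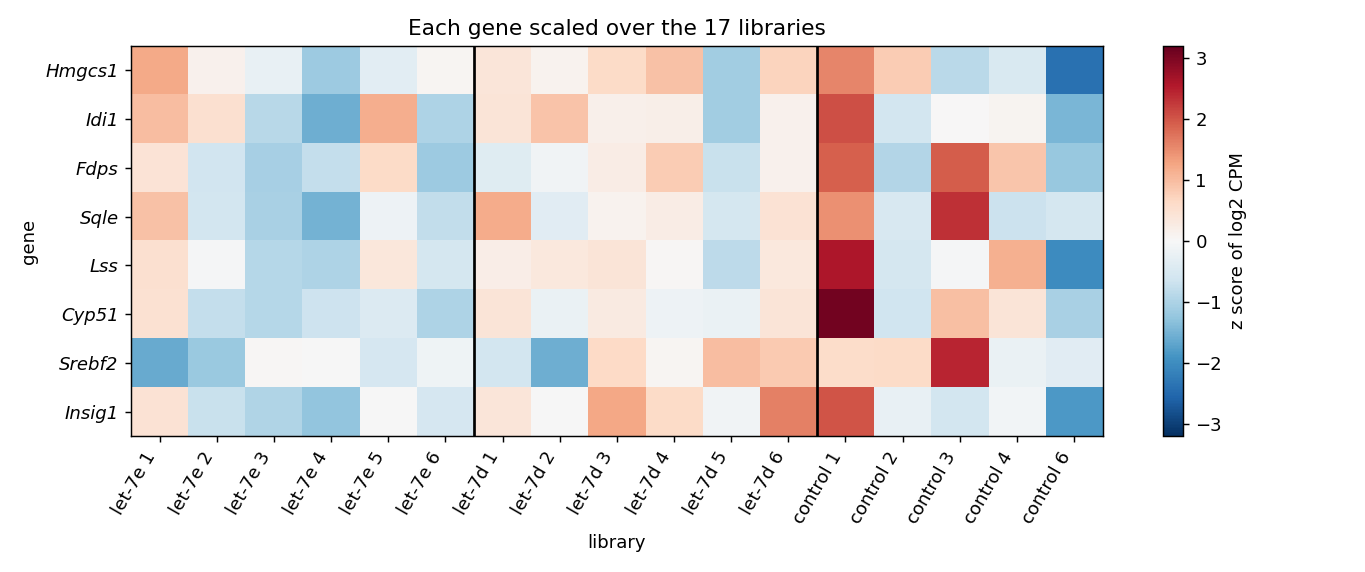
Z score of log2 CPM of each gene (rows) in each library (columns, grouped as let-7e, let-7d and control), red above and blue below the gene's own mean over the 17 libraries. Control 1 is red and control 6 blue in all 8 rows, control 3 is red for Sqle, Fdps, Cyp51 and Srebf2, and the Srebf2 row is blue in the early libraries, replicates 1 and 2 of let-7e and of let-7d.

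A score, the mean z score of the 8 genes in a library, summarised the level of the set. It was highest in control 1, 1.91, where 8 of 8 genes were above their own mean, and lowest in control 6, -1.36, where none was. In let-7e it ran from -0.99 (let-7e 4) to 0.43 (let-7e 1), and in let-7d from -0.46 (let-7d 5) to 0.58 (let-7d 6). The other controls had -0.26 (control 2), 0.77 (control 3) and 0.14 (control 4), so the controls covered more than the range of both injected groups. Library depth and score had r = 0.09 over the 17 libraries.

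Fat-cell markers were abundant in every library, which fits the tissue label: the summed level of 9 of 9 measured adipocyte genes was 37250 to 53610 CPM in let-7e, 23270 to 46790 CPM in let-7d and 29770 to 52250 CPM in the controls, with r = -0.17 to the score over the 17 libraries and -0.54 without controls 1 and 6. Several libraries also held transcripts of other tissues. Of 10 listed epididymis and vas deferens markers 4 were measured. They summed to 17460 CPM in control 3 and to 31.5 CPM in the next highest library. In control 3 Akr1b7 had 14040 CPM, Crisp1 2927 CPM and Spink8 494 CPM. Adam7 went the other way, at 0.23 CPM in control 3 and 17.6 CPM in let-7d 1. The 6 smooth muscle markers summed to 13360 CPM in control 3, where the next highest library had 602 CPM. Control 6 had 1436 CPM over 8 spermatid markers, where the next highest had 68.2 CPM. Epithelial markers, 6 in all, summed to 538 CPM in let-7d 1, 238 CPM in let-7d 5 and 289 CPM in control 3. In control 3 the markers Cldn2 and Foxj1 were low, at 1.00 and 0.43 CPM. The 3 measured markers of steroid-making cells summed to 18.7 CPM in control 6 and to 5.94 to 10.4 CPM elsewhere. In control 6 Insl3 had 11.2 CPM and Cyp17a1 2.33 CPM. Star, at 5.20 CPM there, was under its level in let-7d 2, 5.96 CPM. No measured marker of these lists was at 0 throughout a group. The part of these tissues in the levels of Sqle, Fdps and Srebf2 in control 3, or of the members in control 6, was not tested. Without these 4 libraries the member median was -0.78 in let-7e against control, -0.24 in let-7d against control and -0.40 in let-7e against let-7d. That setting left controls 1, 2 and 4, so control 1 weighed more in both comparisons with control. Leaving out control 1 alone gave medians of -0.26 in let-7e and -0.01 in let-7d against control. Fewer cells of a type and less RNA per cell cannot be told apart in whole tissue.

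Other genes of the pathway were taken as 6 lists of 64 measured genes, chosen with earlier results of these data known. None of the 64 passed edgeR's adjusted threshold in any comparison. At an unadjusted p under 0.05, 12 of the 64 were lower and 1 higher in let-7e against control, where 7.99% of all genes were lower and 2.52% higher. In let-7d against control 3 were lower and 1 higher, where the shares of all genes were 7.08% and 3.11%. In let-7e against let-7d 1 was lower and 1 higher, where the shares were 3.32% and 3.35%.

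The other 14 cholesterol enzymes had negative log2 fold changes in 14 of 14 cases in let-7e against control, with a median of -0.37. In let-7d against control 9 of 14 were negative, with a median of -0.04. In let-7e against let-7d 14 of 14 were, with a median of -0.32. Of all genes 58.1%, 57.5% and 53.1% were negative in these comparisons, in that order. These list medians were not taken without control 1. The smallest adjusted p of these in let-7e against control was that of Fdft1, squalene synthase (-0.38 ± 0.13, edgeR adjusted p = 0.367), followed by Tm7sf2, a sterol reductase (-1.09 ± 0.40, adjusted p = 0.386). In let-7e against let-7d the smallest was that of Msmo1, the methylsterol monooxygenase (-0.57 ± 0.26, adjusted p = 0.742), then Mvd, mevalonate diphosphate decarboxylase (-0.71 ± 0.39, adjusted p = 0.766). In let-7d against control it was Fdft1 (-0.37 ± 0.13, adjusted p = 0.456). Most of this list followed the score of the 8 genes as well: 12 of 14 (85.7%) had r over 0.5, with a median of 0.75, where 9.69% of the 11237 genes averaging 5 CPM or more had r over 0.5 and their median was 0.02. Fdft1 was below that value (r = 0.10). Without controls 1 and 6, 11 of 14 genes of the list were over 0.5.

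**Figure D5:**
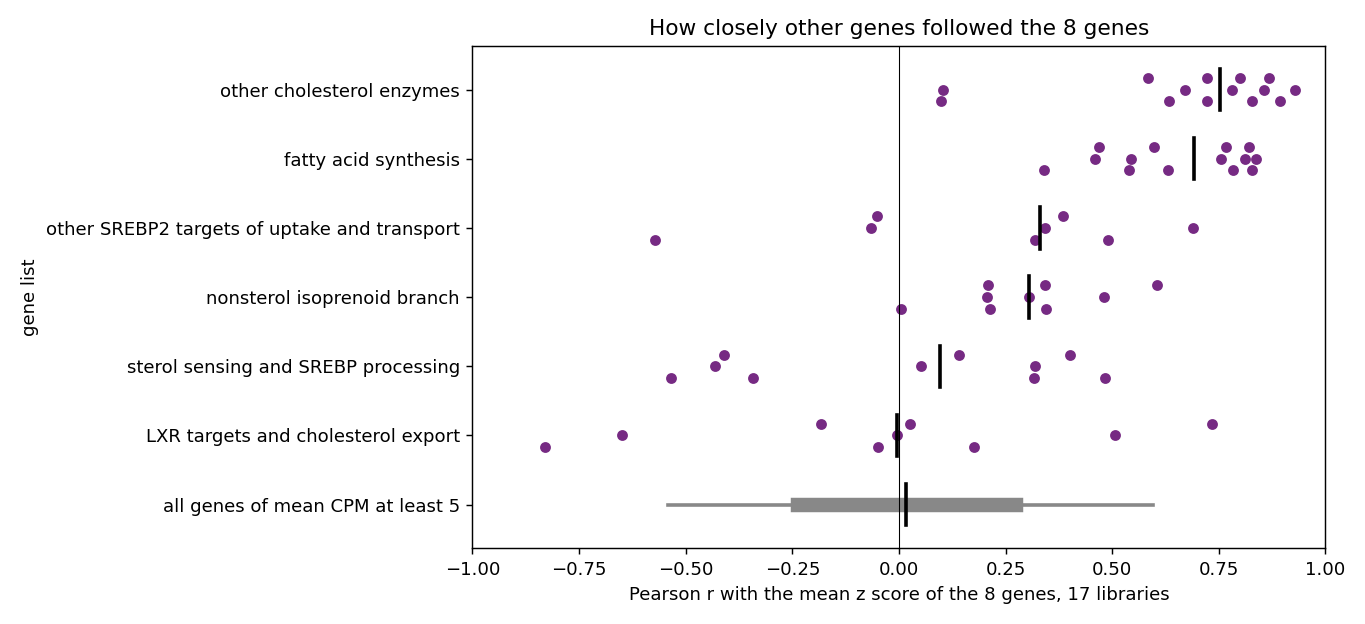
Pearson r of other genes (points, by list) with the mean z score of the 8 genes over the 17 libraries; black bars are medians, and the bottom row gives all genes of mean CPM at least 5, with the 25th to 75th percentile as a thick and the 5th to 95th percentile as a thin line. The medians are 0.75 for other cholesterol enzymes, 0.69 for fatty acid synthesis and 0.02 for all genes.

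Uptake and transport genes, 8 measured, behaved unevenly. Their median log2 fold change was -0.10 in let-7e against control, -0.19 in let-7d against control and -0.10 in let-7e against let-7d. Npc1, which moves cholesterol out of lysosomes, was at 0.26 ± 0.12 in let-7e against control (edgeR adjusted p = 0.459), and ran against the score, with r = -0.57.

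Genes of sterol sensing and SREBP processing had medians close to that of all genes. The median log2 fold change of the 10 was -0.01 in let-7e against control, -0.11 in let-7d against control and 0.05 in let-7e against let-7d, and 0 of 10 had r over 0.5 with the score. Insig2, the second INSIG gene, had r = -0.54 with the score. Scap had r = 0.05 with the score but 0.84 with Srebf2, rank 42 of 11236 genes, and 0.74 without the 2 libraries farthest from the Srebf2 median. Like Srebf2, Scap was lowest in the 4 early libraries, at 40.4 and 40.1 CPM in let-7e and 37.6 and 36.1 CPM in let-7d, and highest in control 3, at 97.4 CPM. The genes nearest to Srebf2 were Spryd3 (r = 0.92) and Hoxd9 (r = 0.92).

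Genes of cholesterol export and the liver X receptor, the sterol-activated counterpart of SREBP2, had median log2 fold changes of -0.06 in let-7e against control, -0.12 in let-7d against control and 0.06 in let-7e against let-7d over 9 genes. Their median r with the score was -0.005, and 2 of 9 had r over 0.5, Lpcat3 (r = 0.73) and Apoc1 (r = 0.51), against 0 of 9 without controls 1 and 6. Apoe, which carries cholesterol out of cells, had the most negative value of the list (r = -0.83, and -0.62 without controls 1 and 6), with 2479 CPM in control 1 and 6062 CPM in control 6. The 9 genes of the nonsterol isoprenoid branch, which make ubiquinone, dolichol and prenyl groups from the same precursors, had medians of -0.05 in let-7e against control, -0.05 in let-7d against control and 0.00 in let-7e against let-7d, and 1 of 9 had r over 0.5.

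Fatty acid synthesis varied with the cholesterol genes across libraries: 11 of 14 genes (78.6%) had r over 0.5 with the score, and 5 of 14 without controls 1 and 6. Fasn, the fatty acid synthase, had 33490 CPM in control 1 and 3080 CPM in control 6. Its median was 6875 CPM in the controls, 6739 CPM in let-7e and 8287 CPM in let-7d. Acly, which supplies acetyl-CoA to both pathways, had r = 0.83. In let-7e against control the list had 13 of 14 negative values with a median of -0.95. In let-7d against control it had 11 of 14 with -0.67, and in let-7e against let-7d 13 of 14 with -0.35. Of all genes 58.1%, 57.5% and 53.1% were negative in these comparisons, in that order. The medians of this list were not taken without control 1 either. Elovl6, a fatty acid elongase, was at -2.32 ± 0.70 in let-7e against control (edgeR adjusted p = 0.356). In let-7d against control Elovl6 was at -1.76 ± 0.66 (edgeR adjusted p = 0.461). Its median was 98.6 CPM in the controls, 59.9 CPM in let-7e and 84.8 CPM in let-7d, and the highest control had 707 CPM. Fads2, a fatty acid desaturase, was at -3.12 ± 0.89 in let-7e against control (adjusted p = 0.356), with 20.1 to 31.4 CPM in the let-7e libraries against 801 CPM in control 3 and 22.0 to 74.8 CPM in the other controls.

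The 10 genes whose level followed the score most closely, of 11230 non-member genes averaging 5 CPM or more, were headed by Mvd (r = 0.93), and Msmo1 had rank 8 (r = 0.89). The others included Psph, the last step of serine synthesis (0.92), Sorl1, a sorting receptor (0.90), Rida (0.90), Psmd5, a proteasome assembly chaperone (0.90), Tlcd1 (0.90), Rnf5, a membrane-bound ubiquitin ligase (0.87), and Pak1ip1 (0.87). Without controls 1 and 6 these r values lay between 0.73 and 0.86.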

How the data were processed

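Per the labels, RNA of 18 epididymal fat samples was sequenced on a NovaSeq; per the submitters' processing notes, reads were aligned with STAR to GRCm38.p6. The counting tool, its use of strand and the aligner version are not given in the sources used here. The authors deposited whole-number read counts per Ensembl gene after a CPM filter, with totals of 12717365 to 28972306 for 17 libraries; a second deposited table was not used. Symbols came from GENCODE M21 by identifier without version (16438 of 16452 matched). Counts were scaled by TMM in edgeR 4.0.16 (R 4.3.3) and tested by quasi-likelihood with group and identifier series, adjusted by Benjamini-Hochberg over all genes. Log2 CPM used a prior count of 2. SE is the absolute fold change over the root of F. Alternatives used DESeq2 1.42.0 and limma 3.58.1. The pipeline was tested on simulated data. The members, lists and alternatives were chosen with earlier results of these data known. Named pathway genes were the 2 smallest unadjusted p per list, direction and comparison at a mean CPM of at least 1, plus the 10 genes most like the score; further genes named with a correlation or a level were chosen after their values were seen. Some genes that these rules select are not reported here.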

Additional observations from a re-analysis of the deposited data

Results flagged for a closer look

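Of the 24 combinations of gene and group, 5 had 1 library set far from the rest of its group by Dixon's criterion. Chance flags about 1 in 20 independent groups, but these combinations share libraries and the genes were selected on these values, so the count is a description and no test. Cyp51 at 68.7 CPM in let-7e 1 was above the next let-7e library, 43.1 CPM. Lss at 30.9 CPM in let-7d 5 was below the next let-7d library, 47.1 CPM. Epithelial markers summed to 238 CPM in let-7d 5 and to 538 CPM in let-7d 1, where Lss had 51.3 CPM. Among controls, Cyp51 at 246.7 CPM and Insig1 at 733 CPM were both in control 1, with the next controls at 86.2 and 185 CPM. Srebf2 at 110 CPM was in control 3, the library with vas deferens and smooth muscle transcripts, with the next control at 68.7 CPM. What sets these libraries apart was not tested.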

How the results depend on the processing

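No gene was called by edgeR in any comparison with DESeq2 size factors, at a looser threshold of 0.1, among genes averaging 5 CPM or more, within the late libraries, within the compared groups alone, with the series left out of the model, without the 4 libraries holding transcripts of other tissues, or with any 1 library left out (0 in each), nor by limma-voom. The DESeq2 Wald test called 15 genes in let-7e against control, 10 in let-7d against control and 14 in let-7e against let-7d; the cause was not tested. The replicate numbers did not pair the samples: 6 of 16 same-numbered pairs had a correlation of deviations over 0.1, and 3 libraries were nearest to their own number. With a replicate block and no series term 1 gene was called in let-7d against control, and the member medians were -0.50, -0.15 and -0.31 in let-7e against control, let-7d against control and let-7e against let-7d; with the series term as well they were -0.25, 0.00 and -0.30. Leaving out 1 library gave member medians from -0.93 to -0.26 in let-7e against control, from -0.43 to -0.01 in let-7d against control and from -0.42 to -0.22 in let-7e against let-7d. The mean r of the 28 pairs of the 8 genes was 0.53, from 0.44 (without control 1) to 0.57 with 1 library left out; with alternatives chosen after seeing the data it was 0.37 without controls 1 and 6, and 0.67 without Srebf2. Of 653 alternative values of the members' fold changes 25 differed in sign from the value reported and 9 moved by over 1 SD. Of the libraries left out singly, control 1 moved the member medians of both comparisons with control most, and the replicate block with the series term moved them slightly further. Idi1 rests on as few as 47 reads in a library.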
